A study of Mus musculus with 2 samples.

Results

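The data describe the metalloproteases that remodel the extracellular matrix, and their inhibitors, in the lens of newborn mice labelled as wild-type or as a lens-specific knockout of the forkhead transcription factor Foxp1. The 39 genes comprised 19 Adamts proteases, 16 matrix metalloproteases (Mmp genes) and 4 tissue inhibitors of metalloproteases (Timp genes), out of 20655 genes that the array named. They were chosen by gene name, and all probes of each gene were taken through the RefSeq transcript each probe carries. The array read them with 52 probes. The set was built around Adamts1 and Adamts5, with the knockout minus control readings of this same pair of arrays already known, so the values below are a description and no test is given.

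Total RNA of lenses was measured on 2 Agilent arrays of 1 colour (Cy3), 1 for control lens and 1 for Foxp1 knockout lens, both at postnatal day 0. The control is labelled as a wild-type litter mate and the knockout as Foxp1 KO, both on a mixed C57BL/6 background. The treatment text of both samples gives the same alleles, Foxp1-flox/flox with Pax6-L-Cre, so whether the control carried the floxed allele or the Cre is not settled by the labels. Pax6-L-Cre is Cre recombinase driven by a Pax6 lens enhancer, and the labels name neither other tissues it reaches nor the exons it deletes. The labels do not say whether lenses of several animals were pooled. With 1 array for each genotype, each difference below is one between these arrays with no replicate check, and differences between animals or dissections cannot be told apart from genotype.

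Adamts and Mmp proteins are secreted or membrane-bound zinc proteases. Adamts proteases cut proteoglycans such as versican and aggrecan, trim procollagens, and act on the fibrillin microfibrils of which the lens zonule is made. Mmp proteases cut collagens, basement membrane proteins and other proteases, and Timp proteins block their catalytic site. The lens lies inside its own basement membrane, the capsule, and in humans mutations of ADAMTS10 and ADAMTS17 are known to displace the lens.

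Signals are given as the processed signal of the scanner software, which is spot brightness after background subtraction. Differences are log2 of the knockout signal minus log2 of the control signal, after the 75th percentile of each array was subtracted. A gene counted as measured when at least 1 of its probes was well above background on both arrays, by the deposited flags, and 2-fold (1 in log2) served as a rule of size. The error given as spot SD is the noise of single spots, taken from 281 probes printed at least 5 times, and it was 0.286 on the log2 scale in the dimmest of 5 classes of these probes and 0.083 in the brightest. It covers no biological variation.

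The arrays differed in their dim range. Of the gene spots, 67.5% were well above background for control lens and 56.9% for knockout lens. Foxp1 itself, with 3 probes, read -1.66 ± 0.29 on the log2 scale (SD over 3 probes), though whether these probes lie in the deleted part is not given. The 11 lens fibre markers with a probe, crystallins among them, were all measured, with differences between -0.25 and 0.29. All 8 lens epithelium markers were measured as well, 4 above 0 and 4 below. Their differences ran from -0.70 (Gja1) to 0.34 (Foxe3), and 0 reached 2-fold, where 1.02% of all measured genes did upward and 5.86% downward. Spike-in RNA at a control signal of 80.2 read 38.0 on the knockout array, and spike-in RNA at 52.4 read 6.79, whereas those at 280.4 and above differed by at most 0.21 in size. The median difference of all 14254 measured genes was 0.006, but it was -0.50 in the dimmest of 5 classes of equal size by mean signal. Scaling by the array medians in place of the 75th percentile added 1.08 to the difference of every gene, so that each gene described as lower by less than this read higher under that scaling.

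Of the 39 genes, 21 were measured on both arrays (53.8%), against 69.0% of all named genes. A further 13 were above background on neither array, against a background of 19.8%. The remaining 5 comprised 3 genes above background on the control array alone (Adamts6, Mmp13 and Mmp23), 1 on the knockout array alone (Adamts19), and Adamts14, whose probes were above background on different arrays. Of all named genes, 8.76% were above background on the control array alone and 2.29% on the knockout array alone. By family the measured genes were 11 of 19 Adamts genes, 6 of 16 Mmp genes and 4 of 4 Timp genes. Only 5 of the 21 measured genes, Adamts4, Adamts18, Mmp11, Timp2 and Timp3, lay above the median signal of all measured genes.

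**Figure D1:**
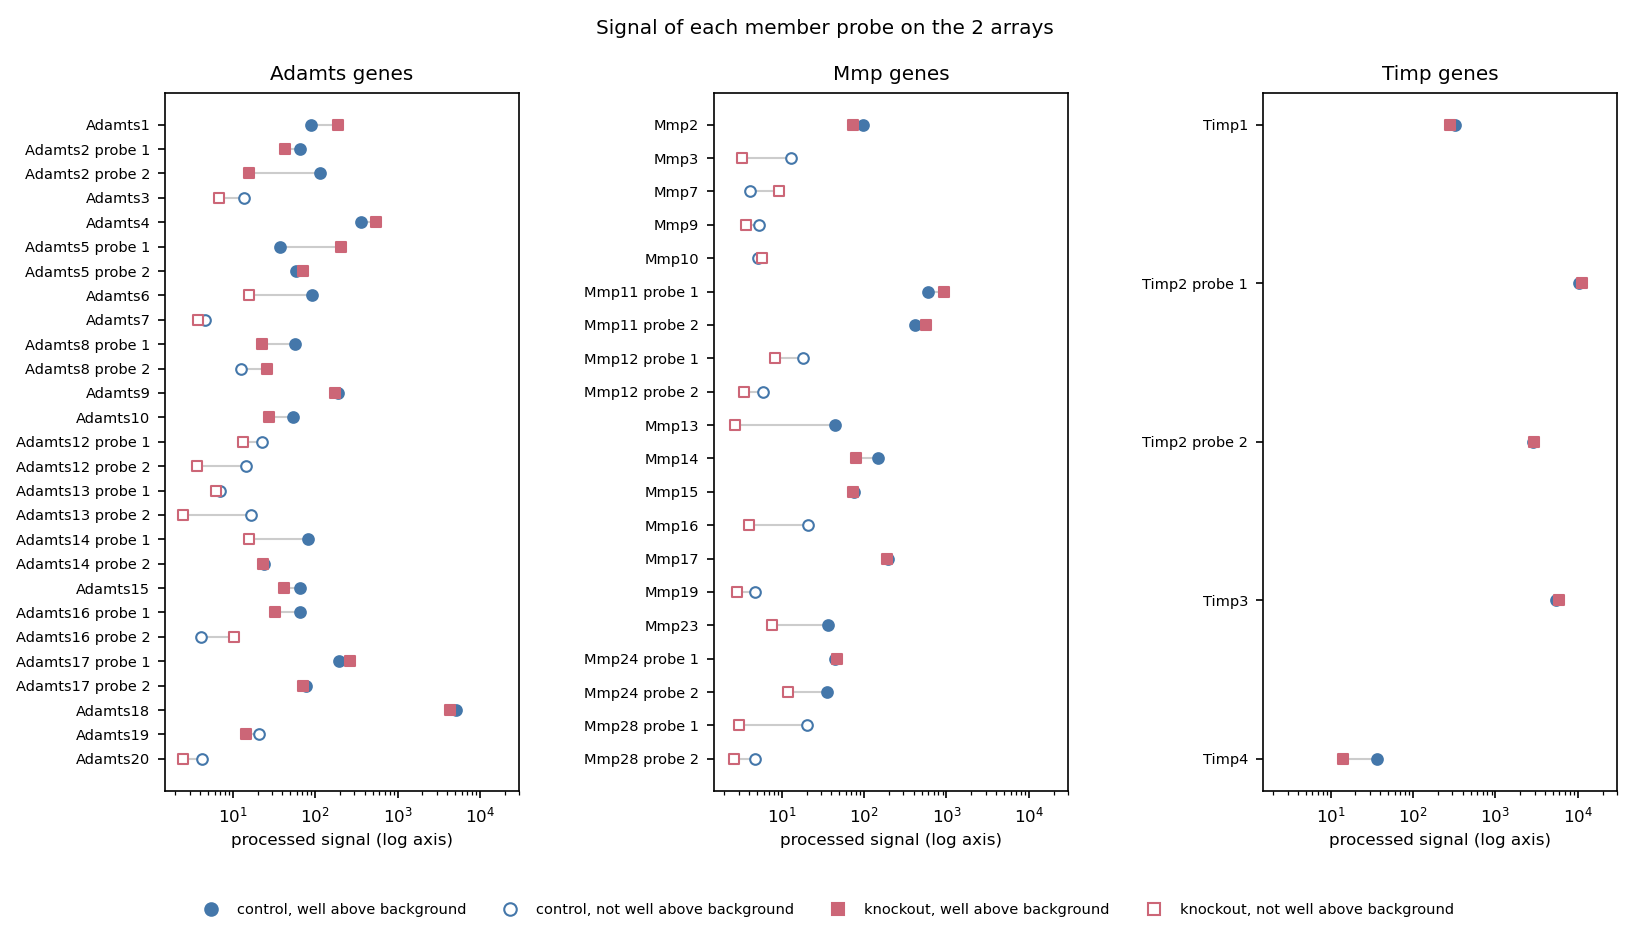
Processed signal (log axis) of every member probe on the control array (circles) and the knockout array (squares), in panels by family; filled marks are well above background. Of the 20 Mmp probes 10 are open on both arrays, while the Timp2, Timp3 and Adamts18 probes sit between 2879.9 and 11395 and nearly coincide on both arrays.

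A group of Mmp genes not measured on both arrays shares matches to an AP-1 element and a TATA box, at differing spacing, and a place in the genome. Start regions of this group are set here beside those of measured members. RefSeq start windows (GRCm38.p6), from 250 bases before to 50 after the start of a gene, were available for 25 of the 39 genes. They were searched on both strands for the AP-1 element TGANTCA, the TATA box TATAAA, the GC box GGGCGG and the forkhead core TGTTTAC, and no match of one motif overlapped a match of another in these windows. The windows printed are those of Mmp3, chr9:7445572-7445871 (plus strand), and Mmp13, chr9:7272264-7272563 (plus strand), as the AP-1 kind, and those of Adamts1, chr16:85803064-85803363 (minus strand), Adamts18, chr8:113848790-113849089 (minus strand), Mmp11, chr10:75932453-75932752 (minus strand), and Timp3, chr10:86300162-86300461 (plus strand), as measured members. Capitals mark the matches.
Mmp3: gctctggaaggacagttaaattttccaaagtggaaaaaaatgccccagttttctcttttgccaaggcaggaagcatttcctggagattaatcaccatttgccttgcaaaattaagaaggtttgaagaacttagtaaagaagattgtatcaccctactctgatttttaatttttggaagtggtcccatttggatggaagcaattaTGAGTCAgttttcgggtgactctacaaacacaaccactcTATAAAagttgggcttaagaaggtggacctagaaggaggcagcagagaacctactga
Mmp13: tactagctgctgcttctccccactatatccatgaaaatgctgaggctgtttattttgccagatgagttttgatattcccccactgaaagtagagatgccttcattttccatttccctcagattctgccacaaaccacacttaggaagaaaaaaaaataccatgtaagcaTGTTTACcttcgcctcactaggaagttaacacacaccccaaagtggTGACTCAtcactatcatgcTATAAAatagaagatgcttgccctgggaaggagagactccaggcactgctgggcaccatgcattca
Adamts1: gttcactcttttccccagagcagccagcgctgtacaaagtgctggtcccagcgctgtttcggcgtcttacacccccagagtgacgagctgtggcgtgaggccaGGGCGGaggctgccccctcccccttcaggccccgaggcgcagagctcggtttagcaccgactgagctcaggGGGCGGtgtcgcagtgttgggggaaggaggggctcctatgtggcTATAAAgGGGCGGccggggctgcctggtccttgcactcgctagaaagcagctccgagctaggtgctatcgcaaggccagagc
Adamts18: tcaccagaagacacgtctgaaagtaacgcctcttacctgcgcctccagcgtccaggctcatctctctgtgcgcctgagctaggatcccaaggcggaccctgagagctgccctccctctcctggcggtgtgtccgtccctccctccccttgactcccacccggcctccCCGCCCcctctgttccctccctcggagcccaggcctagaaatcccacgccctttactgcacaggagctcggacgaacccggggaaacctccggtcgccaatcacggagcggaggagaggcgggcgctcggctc
Mmp11: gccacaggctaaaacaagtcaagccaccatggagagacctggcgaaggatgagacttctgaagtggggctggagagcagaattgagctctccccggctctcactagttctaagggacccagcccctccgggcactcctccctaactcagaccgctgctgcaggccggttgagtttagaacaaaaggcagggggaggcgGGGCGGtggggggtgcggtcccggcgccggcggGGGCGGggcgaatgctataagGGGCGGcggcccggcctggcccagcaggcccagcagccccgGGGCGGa
Timp3: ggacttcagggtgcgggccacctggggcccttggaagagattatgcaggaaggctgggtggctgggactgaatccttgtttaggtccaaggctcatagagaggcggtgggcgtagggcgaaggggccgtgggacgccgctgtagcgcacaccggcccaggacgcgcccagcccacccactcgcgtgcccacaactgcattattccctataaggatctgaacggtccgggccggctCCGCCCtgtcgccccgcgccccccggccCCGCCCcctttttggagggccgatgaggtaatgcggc

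The AP-1 element was found in 5 of the 25 windows, those of Mmp3, Mmp7, Mmp10, Mmp12 and Mmp13, and in 7.81% of all 32851 windows of the table. The same 5 windows held a TATA box, as did that of Adamts1, against 13.6% of all windows. Mmp3, Mmp7, Mmp10 and Mmp12 were above background on neither array and Mmp13 on the control array alone, so that 0 of the 13 measured members with a window carried the element. The GC box was found in 11 of these 13 windows and in 4 of the 9 windows of genes above background on neither array, against 35.7% of all windows. The forkhead core was found in the windows of Adamts13, Mmp10 and Mmp13, none of them measured on both arrays, and in 3.65% of all windows. In the Mmp13 window it begins 81 bases before the start, with the AP-1 element 35 and the TATA box 16 bases before it. Counted from the start, the AP-1 element began at -46 in Mmp3, -63 in Mmp7, -63 in Mmp10 and -44 in Mmp12. The TATA match began at -7 in Mmp3, -123 and -26 in Mmp7, -29 in Mmp10 and 5, past the start, in Mmp12. The spacing of these matches thus differed between the windows. A match of letters is a description of the window and does not show that a factor binds there.

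The 5 genes with the AP-1 element lie in 1 cluster on chromosome 9, with 5 further Mmp genes between them in the RefSeq table. Of the 10 genes of the cluster, 0 were measured on both arrays, 6 were above background on neither array, 3 on the control array alone (Mmp13, Mmp1b and Mmp8), as were 8.76% of all named genes, and Mmp27 had no matching probe. The members of this cluster encode collagenase 3 (Mmp13), the stromelysins Mmp3 and Mmp10, matrilysin (Mmp7) and macrophage elastase (Mmp12). The Mmp3 probe read 13.1 in control lens and 3.33 in knockout lens. The Mmp7 probe read 4.11 and 9.15, and the Mmp10 probe 5.10 and 5.72. None of these readings was well above background, so neither their sizes nor their order carries a difference.

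Mmp13 read 44.5 on the control array, well above background, and 2.72 on the knockout array, under the dimmest reading that passed the background flag there (12.1). Its reading was therefore at least 3.64-fold lower in knockout lens. Mmp23, a membrane-anchored protease, read 36.9 and 7.57 and was at least 3.01-fold lower. Both control signals lie in the range in which spike-in RNA also read lower on the knockout array, and the part of that shift in these readings was not tested.

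The gelatinase Mmp9 and the protease Adamts19 were printed many times, which shows how single dim spots scatter. All 10 spots of Mmp9 were below background on both arrays, with control signals from 4.11 to 13.9 (median 4.46) and knockout signals from 2.45 to 7.19 (median 3.55). Its mean difference was -0.50 ± 0.69 (SD over 10 spots), with 8 of 10 spots lower. Negative control spots also read lower for knockout lens, with a median signal of 2.76 against 4.72 for control lens. The part of that shift in the Mmp9 readings was not tested, so no difference of Mmp9 is drawn from them. Adamts19, a relative of Adamts17, had 9 spots without an outlier flag, of which 3 were above background in control lens and 5 in knockout lens. Its control signals ran from 14.5 to 31.3 (median 22.3) and its knockout signals from 9.74 to 26.6 (median 14.6), so the ranges overlap. The mean difference was -0.52 ± 0.45 (SD over 9 spots), with 8 of 9 spots lower. Differences of members that rest on a single spot near background have no such check.

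**Figure D2:**
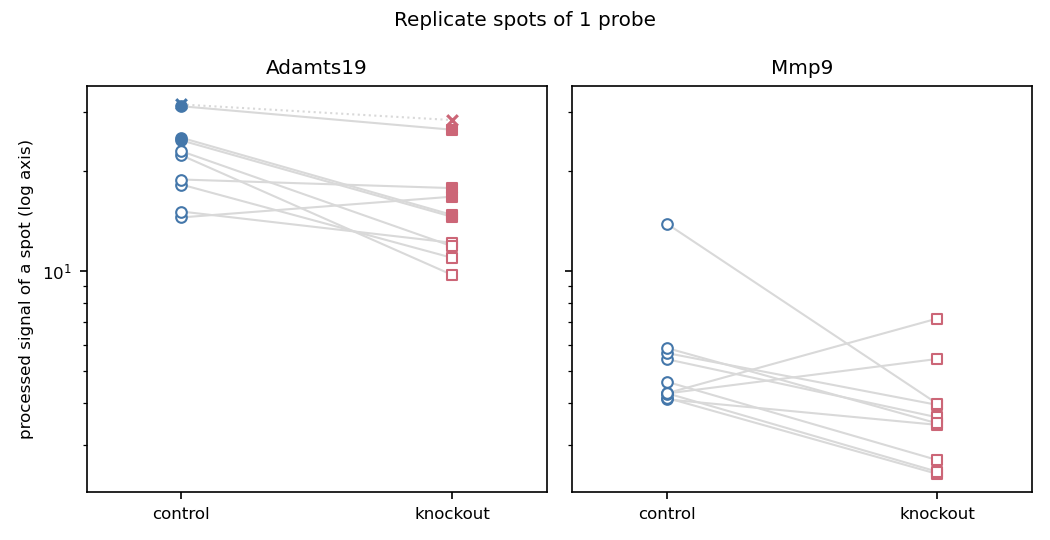
Processed signal (log axis) of each replicate spot of the Adamts19 and Mmp9 probes on the control and knockout arrays; lines join the readings of 1 spot, filled marks are well above background and crosses mark the spot with an outlier flag. The Adamts19 spots without that flag span 14.5 to 31.3 on the control array and 9.74 to 26.6 on the knockout array.

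The Mmp genes measured on both arrays were Mmp2, Mmp11, Mmp14, Mmp15, Mmp17 and Mmp24. Of these 6, 0 reached 2-fold, where 1.02% of all measured genes passed upward and 5.86% downward. Mmp11, stromelysin 3, which is activated inside the cell by furin-type proteases, was the 1 measured member of the family above the median signal of genes. Its probes read 598 and 414 in control lens and 924 and 569 in knockout lens, differences of 0.64 and 0.47. Both probes were higher on the knockout array, and the mean was 0.56 ± 0.12 (SD over 2 probes), or 1.47-fold, at a spot SD of 0.08.

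Mmp14, a membrane-anchored protease that activates the gelatinase Mmp2, read 149 in control lens and 80.0 in knockout lens. This was a difference of -0.88 at a spot SD of 0.19, short of 2-fold. Mmp2 read 96.3 and 73.3, a difference of -0.38 at a spot SD of 0.22. Neither reached 2-fold, and Mmp2 went to -0.10 after loess and to -0.0023 under quantile normalization, while Mmp14 went to -0.69 and -0.64. The transmembrane Mmp15 and the lipid-anchored Mmp17 were close to equal, with 74.9 against 72.3 and 193 against 189.7. Mmp24, another transmembrane protease, had a brighter probe at 44.0 and 46.5, a difference of 0.09, and a second probe that read 35.2 and 11.8 (-1.56), not above background on the knockout array, so its probes went opposite ways. Mmp16, of the same type, Mmp19 and Mmp28 were above background on neither array.

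The 4 Timp genes were all measured. Timp2, which inhibits most Mmp proteases and takes part in the activation of Mmp2, was nearly equal with both of its probes. They read 10490.5 and 2879.9 in control lens and 11395 and 2954 in knockout lens, a mean difference of 0.09 ± 0.06 (SD over 2 probes). Timp3, which is held in the matrix and also blocks Adamts4 and Adamts5, read 5463 and 5867, a difference of 0.12 at a spot SD of 0.08. Timp1 read 326 and 281, a difference of -0.20 at a spot SD of 0.13. These 3 inhibitors differed by at most 1.15-fold, little more than the noise of a spot.

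Timp4 was the inhibitor that passed the rule of size, from 36.9 on the control array to 14.0 on the knockout array, 2.60-fold lower. It lay in the dimmest signal class, where 23.9% of all genes were at least 2-fold lower. The difference of -1.38 became -0.19 after loess, which removes the average difference at each signal level, and 0.01 under quantile normalization. In the RefSeq table Timp1, Timp3 and Timp4 each lie inside the span of a synapsin gene, Syn1, Syn3 and Syn2.

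**Figure D3:**
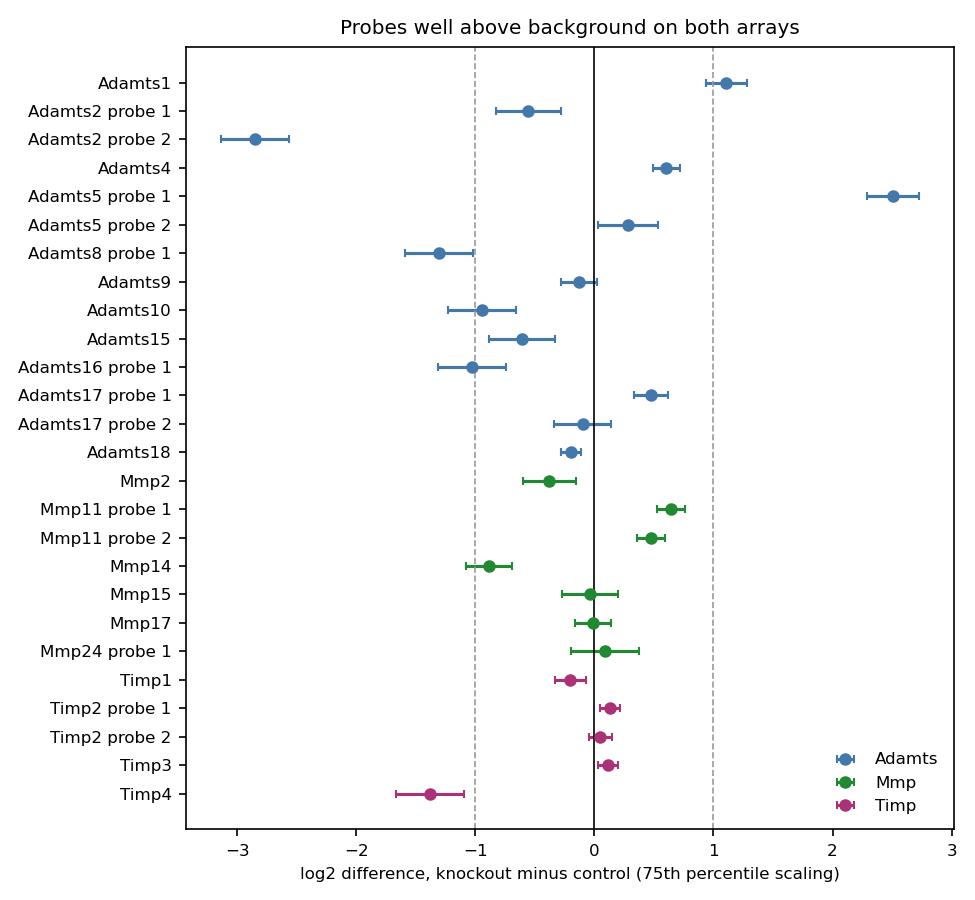
Log2 difference, knockout minus control, of each probe well above background on both arrays; bars are the spot SD, colours mark families and dashed lines mark 2-fold. Timp2, Timp3 and Adamts18 lie near 0 with short bars, and the paired probes of Adamts2 and of Adamts5 lie far apart.

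The Adamts family held both members that passed 2-fold upward in knockout lens and 3 of the 4 that passed it downward. Of the 21 measured members, 2 passed upward (Adamts1 and Adamts5) and 4 downward by their measured probes (Adamts2, Adamts8, Adamts16 and Timp4), where 1.02% of all measured genes passed upward and 5.86% downward. Adamts8 and Adamts16 each had a further probe, not above background on both arrays, that went the opposite way, so no direction of these genes is drawn from the count. Above 0 lay 8 of the 21, where 50.9% of all genes did. Among the 5 members above the median signal 0 passed, where 0.842% of genes passed upward and 0.393% downward. Among the 16 below it 2 passed upward and 4 downward, where 1.21% and 11.3% of genes did. In the dimmest signal class, which held all 4 members counted downward, 1.09% of genes passed upward and 23.9% downward. In the second dimmest, which held Adamts1 and Adamts5, these shares were 1.47% and 3.72%. Since the set was built with these readings known, the counts are a description and nothing is read from them. The median difference was -0.13 over the 21 members, -0.20 over the 11 Adamts genes, -0.02 over the 6 Mmp genes and -0.06 over the 4 Timp genes.

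Adamts1 and Adamts5 cut versican and aggrecan, and both are induced in many tissues that remodel their matrix. They are direct neighbours on chromosome 16, with 0 protein-coding genes between them in the RefSeq table. The Adamts1 probe read 89.3 in control lens and 191 in knockout lens, a difference of 1.11 at a spot SD of 0.17, or 2.15-fold higher. Among the 2851 genes of the same signal class, the second dimmest, 35 were at least as far above 0 (1.23%). The set was built around this gene with its reading known, so this rank is a description and nothing is read from it. After normexp background correction, which draws dim signals together, the difference was 0.70, and it was 0.98 when the scaling percentile came from measured probes alone. It was 1.25 after loess and 1.37 under quantile normalization.

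The probes of Adamts5 disagreed in size. One probe read 37.1 in control lens and 209 in knockout lens, 5.68-fold higher. The second read 58.7 and 70.9, a difference of 0.29 at a spot SD of 0.25. Both probes were higher on the knockout array, but the second by little more than the noise of a spot, so the mean of 1.40 ± 1.57 (SD over 2 probes) rests on 1 probe. The mean was 0.88 after normexp, 1.73 after loess and 2.08 under quantile normalization.

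Some markers of mesenchyme and fibroblasts, cells that lie around the lens, also read higher in knockout lens. Of 9 such markers, 5 were measured on both arrays and 2 of these passed 2-fold, Col3a1 (33.5 to 94.2) and Col1a1 (31.2 to 63.8). In the dimmest signal class, to which both belong, 1.09% of all genes were at least 2-fold higher. Dcn, Lum and Twist2 were above background on the knockout array alone, as were 2.29% of all named genes, and Postn on neither. The summed signal of the 9 markers was 1124 in control lens and 1481 in knockout lens, while Col1a2 differed by 0.50 and Pdgfra and Pdgfrb by -0.02 and 0.02. Of 9 retina markers 8 were measured, and 7 of these 8 lay above 0, where 50.9% of all measured genes did. Their median difference was 0.67 and 1 was past 2-fold, Pou4f2 (110 to 275). In the second dimmest signal class, to which Pou4f2 belongs, 1.47% of all genes were at least 2-fold higher. The summed signal of the retina markers was 5424 and 7804. The summed signal was 4086 and 3984 for 7 of 7 measured endothelial markers, 490 and 434 for the pericyte list (4 of 5), and 1871 and 1746 for the macrophage list (7 of 9). It was 5883 and 5296 for the pigment epithelium list (5 of 6) and 15777 and 12967 for the erythroid list (4 of 5), each lower on the knockout array. Past 2-fold downward were Emcn (endothelium) and Ptprc (macrophage), with differences of -1.12 and -1.06. Both lie in the dimmest signal class, where 23.9% of all genes were at least 2-fold lower. The part of other cell types in the Adamts1 and Adamts5 readings was not tested, and in whole lens RNA a change in the number of cells of a type and one in RNA per cell cannot be told apart.

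Adamts4, another aggrecanase, read 363 in control lens and 547 in knockout lens, a difference of 0.60 at a spot SD of 0.12, or 1.52-fold. Its difference lay between 0.48 and 0.60 under every setting tried except array median scaling (1.69). Adamts9, a versican-cleaving protease, read 191 and 173, a difference of -0.13 at a spot SD of 0.15, within the noise of a spot. Adamts15, which also cuts versican, read 65.0 and 42.2. Adamts8 had probes that went opposite ways, 56.5 to 22.6 with the measured probe (-1.31) and 12.6 to 26.3 with one that was above background on the knockout array alone, so no direction of the gene is given. Adamts20 was above background on neither array.

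Among the procollagen proteases, Adamts2 was lower and Adamts3 and Adamts14 were not measured on both arrays. The Adamts2 probes read 64.6 and 115 in control lens and 43.6 and 15.8 in knockout lens. Both were lower, by 0.55 and 2.85 on the log2 scale, and the mean of -1.70 ± 1.62 (SD over 2 probes) rests on the second probe. In the dimmest signal class, to which the gene belongs, 199 of 2851 genes were at least as low (6.98%). The mean became -1.13 after loess and -0.74 after normexp. Adamts14 had 1 probe at 82.1 and 15.9, above background on the control array alone, and another at 24.1 and 23.1, above background on the knockout array alone. Adamts3, which also processes the growth factor Vegfc, read 13.8 and 6.86, both below background.

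Adamts18 is an orphan protease for which eye defects are known in humans and mice. It read 5071 in control lens and 4373 in knockout lens, a difference of -0.20 at a spot SD of 0.08. The gene lies in the brightest signal class, in which 181 of 2851 genes were at least as low (6.35%). Its relative Adamts16 had probes that disagreed, with 66.1 to 32.2 for the measured probe (-1.03) and 4.14 to 10.3 for a probe below background on both arrays.

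The microfibril group comprises Adamts6, Adamts10 and Adamts17. Adamts17 read 193 and 76.8 in control lens and 265 and 71.0 in knockout lens, so its probes lay on opposite sides of 0 (0.47 and -0.10). Adamts10 read 53.4 and 27.5, a difference of -0.94 that became -0.21 after loess and 0.06 under quantile normalization. Adamts6 read 91.8 in control lens and 15.8 in knockout lens, where it was not above background. It read 5.75-fold lower there, as a ratio of single spots and not as a lower limit. Its control signal is close to that of the spike-in RNA which read 80.2 and 38.0, a difference of -1.06, and the part of that shift in this reading was not tested. Adamts7 and Adamts12, known to cut a cartilage matrix protein, and Adamts13, the protease of von Willebrand factor, were above background on neither array.

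**Figure D4:**
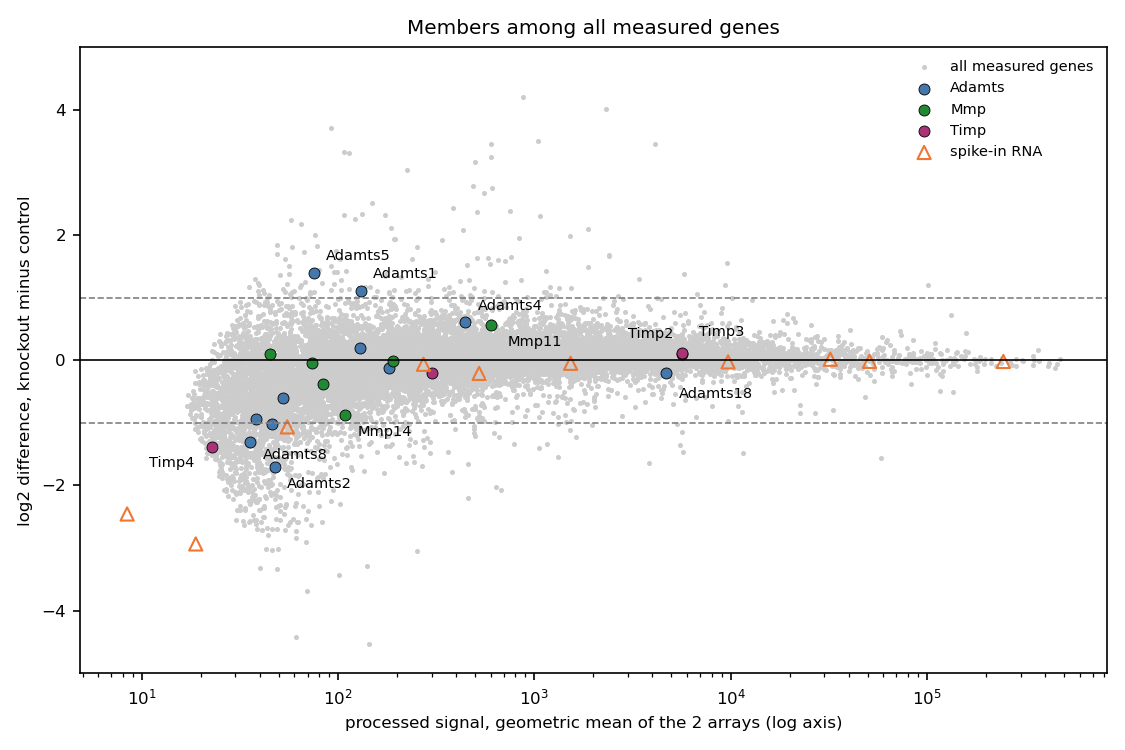
Log2 difference (knockout minus control) against mean processed signal (log axis) for all 14254 measured genes (grey), the 21 measured members (colours by family) and spike-in RNAs (open triangles); dashed lines mark 2-fold. The points of Timp4, Adamts2, Adamts8 and Adamts16 sit in the dim range in which the grey cloud and the dim spike-ins bend downward. Adamts8 and Adamts16 are given no direction, since a further probe of each went the opposite way. Adamts1 and Adamts5 sit at the upper edge of the cloud, where 35 and 21 genes of their signal class were at least as high. The set was built around both genes with their readings known, so these ranks are a description.

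Other genes of the same systems were read from lists of known partners. Of all named genes 69.0% were measured, and 50.9% of measured genes lay above 0. Of measured genes, 1.02% were at least 2-fold higher and 5.86% at least 2-fold lower. The lists are short, so their counts are a description. Of 7 further Mmp genes, Mmp1b, Mmp8 and Mmp21 were above background on the control array alone, as were 8.76% of all named genes. Mmp1a, Mmp20 and Mmp25 were above background on neither, as were 19.8% of all named genes, and Mmp27 had no probe. The Adamts-like genes encode relatives without a protease domain. Of 6 with a probe 4 were measured, all below 0, and 2 were at least 2-fold lower, Adamtsl2 (103 to 30.3) and, as a mean of 2 probes, Adamtsl1. The Adamtsl1 probes went opposite ways, 26.7 to 32.8 and 85.8 to 16.1, so no direction of this gene is given. Both genes lie in the dimmest signal class, where 23.9% of all genes were at least 2-fold lower, and the median of the list went from -0.65 to -0.18 after loess. Thsd4, another gene of this list, had a difference of -0.26. Adamtsl4, in humans a gene of inherited lens displacement, read 925 and 862, a difference of -0.09.

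Of 12 membrane Adam proteases 11 were measured, where 69.0% of all named genes were, with a median difference of 0.17. Among these 11, 0 reached 2-fold, where 1.02% of all measured genes passed upward and 5.86% downward. Adam10, a sheddase of Notch and cadherins, read 6897 in control lens and 11493 in knockout lens, a difference of 0.75. Adam23 had a difference of -0.51, Adam8 one of 0.34 and Adam33 one of -0.33, all at dim signals. Of 10 activators and regulators all were measured and 0 reached 2-fold. With so few genes, 0 past 2-fold in either list is close to the shares of all genes. Thbs2, a matrix protein that binds Mmp2, had a difference of -0.56 and Pcsk6, a furin-type activating protease, one of 0.32. Bsg, an inducer of Mmp genes, had one of -0.21. The membrane inhibitor Reck was dim, at 30.1 and 24.1. Of 7 astacin proteases and enhancers 3 were measured, all below 0, where 50.9% of all measured genes lay above 0. Tll1, a relative of Bmp1, had a difference of -0.64 and Pcolce, an enhancer of Bmp1, one of -0.18. Bmp1, the procollagen C-proteinase, had a mean of -0.38 ± 0.03 (SD over 3 probes).

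In the plasminogen system 4 of 9 genes were measured, where 69.0% of all named genes were. Of these 4, 1 was at least 2-fold lower, Plg, at dim signals of 52.4 and 16.2. Plg lies in the dimmest signal class, where 23.9% of all genes were at least 2-fold lower. The activator Plau and its receptor Plaur were above background on neither array, and Plat read 148 and 105. Of the proteoglycan substrates of Adamts1, Adamts4, Adamts5 and Adamts9, Vcan (versican) and Acan (aggrecan) had differences of -0.40 and -0.66, both dim, Bcan (brevican) one of -0.56 and Ncan (neurocan) one of 0.87. Of the 8 genes listed with these substrates 5 were measured. Among these 5, 0 reached 2-fold, where 1.02% of all measured genes passed upward and 5.86% downward. The list also held Has2 and Hapln1, which are not taken as substrates here, and neither was measured on both arrays. Of 5 substrates of Adamts2, Adamts3 and Adamts14, 2 were at least 2-fold higher, the fibrillar collagen genes Col1a1 and Col3a1, both also counted among the mesenchyme markers and both in the dimmest signal class, where 1.09% of all genes were. Col1a2 had a difference of 0.50, and Col2a1 read 1950 and 2063, a difference of 0.09. Of 11 microfibril genes 10 were measured, 8 of them below 0, where 50.9% of all measured genes lay above 0. The 2 at least 2-fold lower were Ltbp2 (106 to 37.1) and Efemp1 (41.8 to 19.6). Fbn2 and Emilin1 had differences of -0.53 and -0.51. Ltbp2 and Efemp1 both lie in the dimmest signal class, where 23.9% of all genes were at least 2-fold lower.

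**Figure D5:**
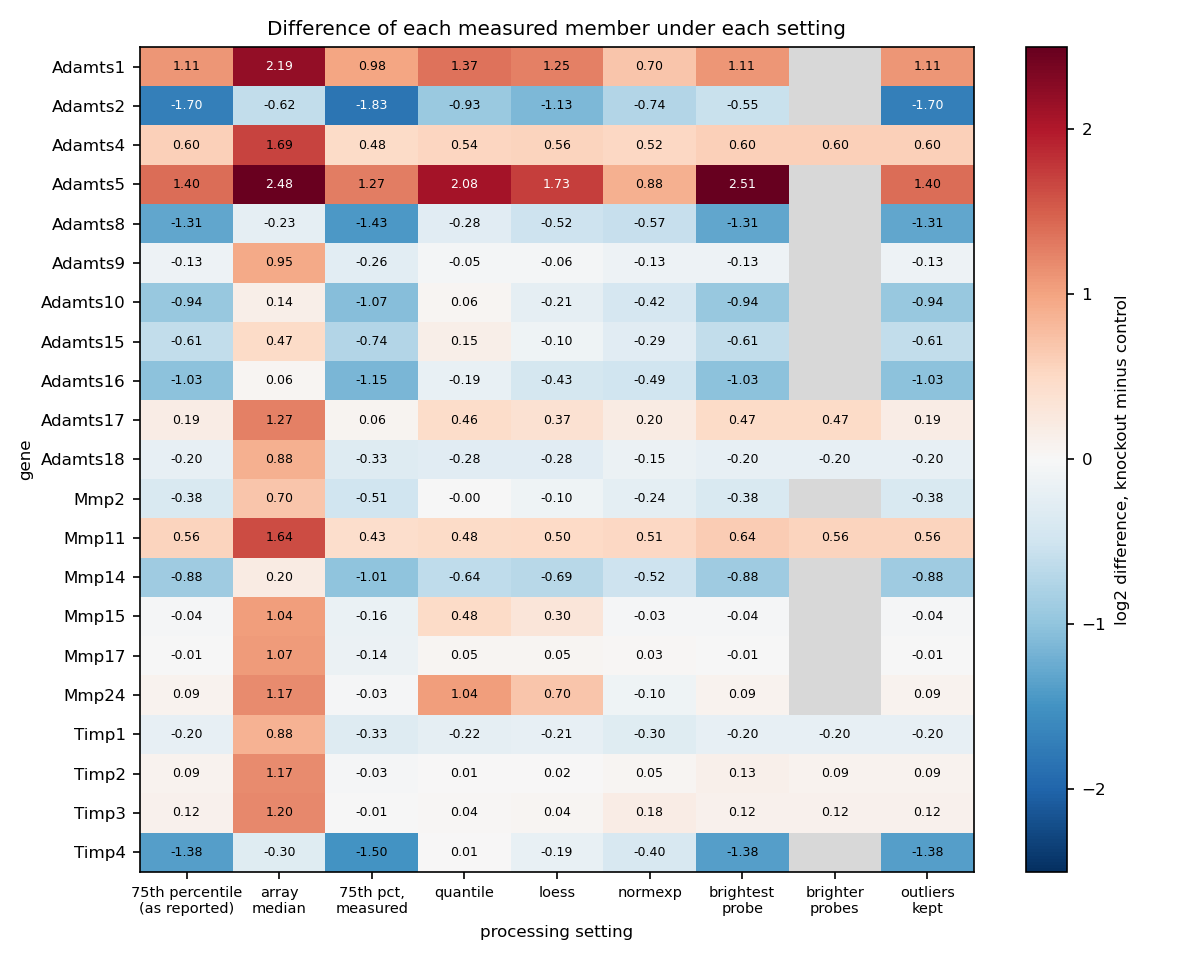
Log2 difference, knockout minus control, of the 21 measured members under each processing setting except that without a filter on background, which is not drawn. Red is higher and blue lower on the knockout array, and grey cells have no value because the probes were too dim for that setting. Adamts1, Adamts4, Adamts5, Adamts17 and Mmp11 are above 0 in every column where they have a value, and most blue cells of dim genes fade under quantile normalization and loess.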

How the data were processed

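Total RNA of control and Foxp1 knockout newborn lens was hybridised to 1 array each, both on 1 slide per the file headers. The deposited values are spot intensities extracted with Agilent Feature Extraction 10.7.3.1 and a layout on build mm9, per the file headers, and the authors' deposited flags of 0 or 1 (other values) mark outliers, saturation (0 spots) and signals well above background. No scaling between arrays is recorded. From these, control spots and outlier spots were left out, log2 of the processed signal minus the array's 75th percentile (283 and 279.9) was taken, and replicate spots were averaged. Measured probes had over 50% of spots past the background flag on each array, and a gene's difference is the mean over its measured probes. Bounds set the bright signal against the dim probe's own or the lowest signal called well above background (20.6 and 12.1), whichever is higher. Probes were named by unversioned RefSeq accession (27225 of 55655 probes, GRCm38.p6 table). Promoter sequences are RefSeq's. The steps were tested on simulated data with the same spot noise at all signals and no dim-range shift between arrays. That test therefore does not cover the shift or the larger noise of the dim readings. Members and lists were chosen with earlier results of these data known. The rule for named genes took all members, Foxp1, and in each pathway list up to 4 genes with the largest difference and any past 2-fold; Plau, Plaur, the further Mmp genes and the marker genes named were added after their values were seen. Alternatives were other scalings, quantile, loess (span 0.3), normexp (limma 3.58.1, R 4.3.3, offset 50), other probe rules and filters. The files hold no mean spot signal, so normexp used the median spot signal, a choice made after seeing the data. Python 3.11.15 was used. The number of arrays limits the precision.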

Additional observations from a re-analysis of the deposited data

How the results depend on the processing

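No paired analysis was possible because each genotype has 1 array, and leaving out an array leaves no difference. Values are log2 differences or medians of them, in the order members, Adamts, Mmp, Timp and then pathway lists. Scaling by the array median moved all genes by 1.08 and gave 0.95, 0.88, 1.06 and 1.03, with 0.43 for Adamts-like genes, 1.25 for Adam proteases, 0.70 for astacins, 0.86 for the plasminogen system, 0.91 for activators, 0.68 for substrates of Adamts1, Adamts4, Adamts5 and Adamts9, 1.59 for substrates of Adamts2, Adamts3 and Adamts14, and 0.67 for microfibril genes. It left 10 members at least 2-fold higher and 0 lower, Foxp1 at -0.58 and Adamts16 at 0.056, which reversed. Each of the 3 scalings subtracts a constant per array, so members necessarily stood at -0.135 relative to the median of all genes under each. Under the other settings this value lay between -0.36 (no filter on background) and 0.03 (brighter probes alone). The percentile over measured probes moved all genes by -0.13 and left 1 member higher and 6 lower. Quantile normalization gave 0.057 for Adamts, 0.27 for Mmp, -0.17 for Adamts-like, 0.35 for Adam, 0.11 for plasminogen, 0.11 for substrates of Adamts1 and its kin and -0.23 for microfibril genes, with 3 members higher and 0 lower, and Timp4 reversed to 0.014. Loess gave 0.17 for Mmp, -0.18 for Adamts-like, 0.0098 for plasminogen and -0.036 for substrates of Adamts1 and its kin, with 1 lower. Normexp, chosen after seeing the data, gave -0.23 and -0.22 for Adamts-like genes and those substrates, 0 higher and 0 lower, and Foxp1 at -1.34. The brightest probe of each gene gave -1.01 and -0.050 for the same lists. No filter on background took in 39 genes, with -0.52, -0.52 and -0.73 for members, Adamts and Mmp, -1.03 for Adamts-like, -0.75 for plasminogen, 11 lower, and Adamts16 reversed to 0.15. Brighter probes alone left 7 members, with 0.12, 0.47 and 0.56 for members, Adamts and Mmp, -0.088 for Adamts-like, -0.024 for substrates of Adamts1 and its kin, 0.30 for those of Adamts2, and 0 higher and 0 lower; the plasminogen list had no value there. Of the other values, 105 for single genes and 91 for medians and counts stayed within the noise of a spot or, for counts, 1.5 times. Many of these could not move, since probe rules and filters leave a measured gene with 1 probe as it was. Keeping outlier spots left every member value the same. A further 67 for single genes moved by more with no reversal of a call. These include a lost call, Adamts8 at -0.28, and a change of sign, Adamts10 at 0.057, both under quantile normalization. The cause was not tested. Signals near background limit most Adamts and Mmp readings.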
